A study of Mus musculus with 82 samples.

Results

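Expression of 9 genes of the bone morphogenetic protein (BMP) and activin system was examined in primary mouse aortic vascular smooth muscle cells (aVSMC): the inhibitors of DNA binding Id1, Id2, Id3 and Id4, the BMP antagonists Grem1 and Nbl1, the pseudoreceptor Bambi, and, on the activin side, Inhba and its antagonist Fst. The members were taken by gene symbol, as 9 of the 55401 genes in the count tables. No cutoff on a measured value was applied, but the list was written with earlier results of these data known. RNA was sequenced from 82 libraries of aVSMC incubated with the ligands of 3 receptors. After 24 h there were 7 groups with 6 mice each, namely a control, each ligand alone, EGF together with AngII or with U46619, and the triple incubation EGF+AngII+U46619. After 48 h there were 6 groups in 2 batches: 5 culture sets were incubated without ligand, with EGF or U46619, or with both (the EGF/U46619 batch), and 5 others without ligand, with EGF or AngII, or with both (the EGF/AngII batch). EGF (10 µg/L) activates the EGF receptor, AngII (angiotensin II, 10 nM) the AT1 receptor, and U46619 (1 µM), a stable thromboxane A2 mimetic, the thromboxane receptor TP.

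All groups shared what limits the model: passaged cultures from C57BL/6 mice, kept in medium that contained serum and EGF and then held for 24 h without serum or supplements before the incubation. Control cells received no ligand. At 48 h the labels number 5 mice for the 10 culture sets, whereas the study's methods describe a different mouse for each replicate.

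BMPs bind receptor kinases that phosphorylate SMAD1, SMAD5 and SMAD9, and the Id genes are among the best known direct targets of these SMADs. Id proteins have a helix-loop-helix but no DNA-binding region, so they pair with E proteins such as TCF3 and keep them off DNA. GREM1 and NBL1 are secreted proteins that bind BMPs and keep them from their receptors, and BAMBI is a membrane protein that resembles a receptor without a kinase. Inhba encodes the βA subunit of activin A, a ligand of the same superfamily that signals through SMAD2 and SMAD3, and follistatin (Fst) binds activin and neutralises it. In arteries, BMP signalling is studied for its part in smooth muscle differentiation, calcification and pulmonary hypertension.

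On GRCm38 (GENCODE annotation) all 9 are protein-coding genes. Id1 lies at chr2:152736251-152737410 on the plus strand, Id2 at chr12:25093799-25097140 on the minus strand, Id3 at chr4:136143497-136145755 on the plus strand and Id4 at chr13:48261228-48266026 on the plus strand. Grem1 lies at chr2:113746164-113758646 and Nbl1 at chr4:139082284-139092993, both on the minus strand. Fst lies at chr13:114452290-114458951 on the minus strand and Inhba at chr13:16011851-16031621 on the plus strand. Id4, Fst and Inhba overlap annotated genes on the opposite strand, and no strand setting is given for the counting, so reads from these partners cannot be told apart where exons overlap.

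The sequence before the RefSeq start of Id2, Id4 and Inhba is shown because these genes moved furthest with U46619 at 24 h. The stretches come from the RefSeq promoter table for GRCm38.p6 and are read 5′ to 3′ on the gene's strand. The Id4 window is chr13:48260866-48261115 (plus strand) and the Inhba window chr13:16011601-16011850 (plus strand), each covering the 250 bases before the RefSeq start, which is the GENCODE start for Inhba and lies upstream of it for Id4. The Id2 window is chr12:25096254-25096342 (minus strand), the first 89 of the 250 bases before the RefSeq start, since the rest lies in annotated exons. GENCODE starts Id2 further upstream, so this window lies inside the GENCODE gene but outside its exons. Distances are counted from the RefSeq start. Capitals mark matches, on either strand, to GGCGCC or GGAGCC (short cores bound by BMP SMADs) and to AGAC (the SMAD box).
Id2: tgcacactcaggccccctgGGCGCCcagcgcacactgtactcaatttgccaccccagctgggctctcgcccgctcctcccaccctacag
Id4: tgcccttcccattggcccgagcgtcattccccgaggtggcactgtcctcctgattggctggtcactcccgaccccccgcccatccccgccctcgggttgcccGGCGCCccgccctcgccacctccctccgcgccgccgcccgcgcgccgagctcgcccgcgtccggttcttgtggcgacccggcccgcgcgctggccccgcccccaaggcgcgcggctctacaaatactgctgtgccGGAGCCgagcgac
Inhba: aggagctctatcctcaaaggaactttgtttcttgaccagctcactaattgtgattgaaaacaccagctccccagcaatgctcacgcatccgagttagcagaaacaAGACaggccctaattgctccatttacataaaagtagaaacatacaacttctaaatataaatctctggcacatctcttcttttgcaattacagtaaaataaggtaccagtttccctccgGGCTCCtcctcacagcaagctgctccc

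Id2 held 1 GGCGCC, starting 231 bases before the start, and Id4 held 1 GGCGCC and, 13 bases before the start, 1 GGAGCC. Inhba held GGAGCC on the reverse strand, as GGCTCC 27 bases before the start, and 1 AGAC 145 bases before, and no GGCGCC. No match to TGACGTCA (the cAMP response element) or TGANTCA (the AP-1 element) was found in these 3 windows. Of the 32851 promoters in the table, 9.59% held GGCGCC in the 250-base window, 26% GGAGCC, 82.9% AGAC, 1.55% TGACGTCA and 6.75% TGANTCA. Over the shorter stretch shown for Id2, 2.73% held GGCGCC. A match is a run of letters, not a binding site.

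The libraries held 16483529 to 20818809 counted fragments at 24 h and 19936925 to 33916114 at 48 h. The cultures differed in endothelial transcripts: the 8 endothelial markers summed to 2.30–7.89 FPM (fragments counted, scaled to a common library size with edgeR) in mice 1 and 2 of the 24 h series, 20.3–61.7 in mouse 3, 345–446 in mouse 5, 576–758 in mouse 4 and 2010–2582 in mouse 6. Cdh5, a defining endothelial gene, was at 0 in all 82 libraries, as were the smooth muscle genes Tagln and Cnn1, and 7075 genes of chromosomes 9, X, Y and MT were at 0 throughout. A gene listed at 0 in every library was therefore not read as unexpressed. At 48 h, the library labelled control replicate 4 of the EGF/AngII batch stood apart: its deviations from the group means correlated at −0.19 on average with the other libraries of its own set and at 0.92 with those of set 2. Control replicate 2 of that batch correlated at 0.81 with its own set and at 0.71 with set 1. Its Grem1 was at 144 FPM, against 25.2, 27.7 and 37.9 FPM with AngII, EGF and EGF+AngII in set 2. The 48 h comparison with U46619 was therefore also made without sets 2 and 4. In bulk RNA, fewer cells of a type and less RNA per cell cannot be told apart.

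In control cells the genes covered a wide range of levels. Per kilobase of exon, the 24 h control means, in FPM per kb (± SD, n = 6), were 143 ± 48.8 for Nbl1, 125 ± 101.01 for Id3 and 59.2 ± 47.5 for Id1. Id4 (26.3 ± 23.4), Fst (23.9 ± 12.6), Grem1 (17.6 ± 24.4) and Id2 (12.0 ± 11.0) followed, with Inhba (5.83 ± 4.50) and Bambi (3.33 ± 1.57) lowest. Each gene's range overlapped that of its neighbour in this order. Genes were not compared within mice, so the order of neighbours was not tested. At 48 h (n = 10) the order was Id3 (199 ± 75.6), Nbl1 (123 ± 50.9), Id1 (120 ± 46.9), Grem1 (29.9 ± 26.5), Id2 (29.2 ± 15.8), Fst (22.9 ± 7.25), Id4 (19.1 ± 13.9), Inhba (9.45 ± 3.87) and Bambi (2.35 ± 0.930). By mean, Nbl1, Id3 and Id1 were the highest 3 and Inhba and Bambi the lowest 2 at both times. Single mice departed from this order: the lowest 24 h control of Id1, at 5.01 FPM per kb, lay below the lowest of Fst, at 7.86. The times were sequenced separately, so levels were not compared between them.

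The spread between mice was larger for some genes than for others. The highest 24 h control exceeded the lowest by 104-fold for Grem1, 25.8-fold for Id1, 23.2-fold for Id4 and 13.4-fold for Id3, against 2.96-fold for Bambi and 2.13-fold for Nbl1. At 24 h cells of each mouse received every treatment, and the fits held the mouse as a term, at both times unless another block is named. A gene was called a differentially expressed gene (DEG) when its false discovery rate (FDR) was below 0.05 in both edgeR and DESeq2 and its mean reached 5 FPM in a compared group. Changes below are log2-fold changes ± standard error with edgeR's FDR.

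**Figure D1:**
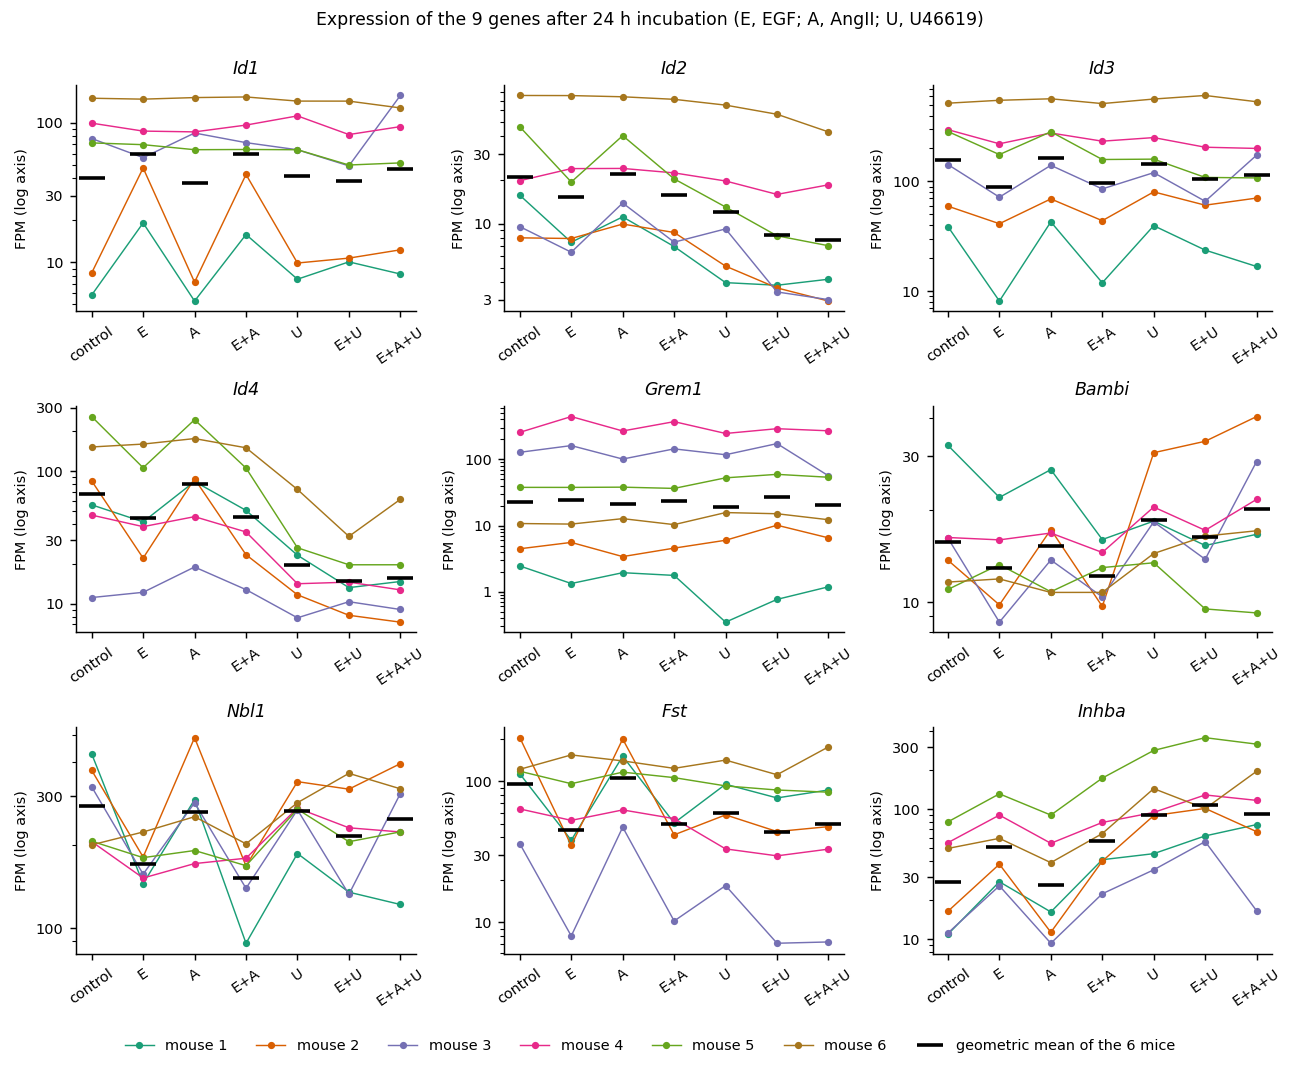
Expression in FPM (log axis) of the 9 genes in each of the 42 libraries after 24 h, by treatment (E, EGF; A, AngII; U, U46619), with 1 colour per mouse. Id4 and Id2 lay lower and Inhba higher with U46619 than in the control in 6 of 6 mice, while the spread between mice exceeded these shifts, from 2.46 to 256 FPM in Grem1 controls.

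Incubation with U46619 for 24 h lowered Id2, Id4 and Fst and raised Inhba, and left the other 5 members below the calling threshold. Thus 1 of 9 members was a DEG with higher expression, against 19% of all genes that could be called, and 3 were lower, against 19.8%. The members' median log2-fold change was −0.13, and that of all genes −0.00. U46619 changed a large share of the transcriptome.

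Id4, the Id protein known from neural and reproductive tissue, had the greatest decrease. Its control level had a minimum of 11.1, a median of 70.0 and a maximum of 258 FPM, and its level with U46619 a minimum of 7.83, a median of 18.7 and a maximum of 72.7 FPM. The groups overlapped, but each of the 6 mice was lower than its own control, to between 0.102 and 0.703 of it. The fitted change was −1.91 ± 0.313 (edgeR FDR = 4.84e-05).

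Id2, an Id family member widely expressed in mesenchymal cells, was lower in 6 of 6 mice as well. Control values ran from 8.01 over a median of 17.7 to 75.9 FPM, and U46619 values from 3.95 over 11.1 to 65.1 FPM. The decrease was −0.83 ± 0.235 (edgeR FDR = 0.00673). It was uneven, since mice 3, 4 and 6 changed little (9.56 to 9.22, 19.7 to 19.6 and 75.9 to 65.1 FPM) and mouse 5 went from 46.2 to 13.0 FPM. Leaving out mouse 1 or mouse 5 ended the call.

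Inhba was the member that rose. It ran from 10.9 over a median of 33.2 to 80.02 FPM in control cells and from 34.2 over 92.0 to 284 FPM with U46619. The increase was 1.71- to 5.46-fold within mice, in 6 of 6, and 1.70 ± 0.231 in the fit (edgeR FDR = 6.23e-06). Fst, whose product neutralises activin, moved the other way, from 36.1 over 116 to 204 FPM in the control to 18.2 over 75.3 to 142 FPM with U46619, and was lower in 5 of 6 mice. This decrease was −0.78 ± 0.308 (edgeR FDR = 0.0465), and leaving out any one of mice 1 to 5 ended the call.

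The other members had no call with U46619 at 24 h, and their 95% intervals bound the change. Id1 was at 0.01 (−0.62 to 0.64), Id3 at −0.13 (−0.61 to 0.35), Grem1 at 0.00 (−0.62 to 0.62), Bambi at 0.22 (−0.29 to 0.72) and Nbl1 at −0.14 (−0.60 to 0.32). Id1 and Id3 went up in 3 mice and down in 3.

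Fibroblast marker transcripts moved in the same comparison. The 8 fibroblast markers summed to 624–3602 FPM (median 977) in control cells and 239–2262 FPM (median 460) with U46619, and 7 of 8 were lower DEGs with a median change of −1.32. None of the 7 endothelial markers tested was a DEG. Of the 6 smooth muscle markers tested, 2 were higher DEGs, and the median change was 0.25. The summed level of that list went from 1276–5236 to 4578–18070 FPM. Acta2 weighs most in this sum, with a median of 3341 FPM over the 42 libraries against 133 FPM for Actg2. The 8 leukocyte markers summed to 20.9–115 FPM (median 74.7) in control cells and 23.5–76.8 FPM (median 36.5) with U46619, lower in 4 of 6 mice, and of the 3 tested 1 was a higher and 1 a lower DEG. The part of these shifts in the changes of Id2, Id4, Fst and Inhba was not tested.

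EGF alone for 24 h gave no DEG among the 9 members, where 0.0386% of all genes were called, although 7 members had an unadjusted p below 0.05 in edgeR and DESeq2 alone called 3 (Nbl1, Fst and Inhba). Over the 10352 genes that could be called, DESeq2 alone called 397, and 2133 had an unadjusted p below 0.05 in both tools. The members' median was −0.52, against −0.02 over all genes. Inhba was higher than its control in 6 of 6 mice, by 1.196- to 2.54-fold (0.88, 95% interval 0.42 to 1.34, edgeR FDR = 0.0817). Fst was at −1.09 (−1.72 to −0.46, edgeR FDR = 0.0939), Nbl1 at −0.77 (−1.23 to −0.31, FDR = 0.0975) and Id3 at −0.74 (−1.23 to −0.25, FDR = 0.116), each lower in 5 of 6 mice.

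The values with EGF differed between mice. Within mice, Fst stood at −1.55, −2.53 and −2.11 on the log2 scale in mice 1, 2 and 3, and at −0.27, −0.29 and 0.34 in mice 4, 5 and 6. Nbl1 stood at −1.56, −1.04 and −1.05 in the former and at −0.44, −0.20 and 0.15 in the latter. Mice 1 to 3 are those with endothelial marker sums of at most 61.7 FPM and mice 4 to 6 those with sums of at least 345 FPM, and the part of this was not tested. In a fit without mice 4, 5 and 6, chosen after seeing the data, Fst (−2.13, edgeR FDR = 0.00055), Nbl1 (−1.24) and Inhba (1.28) were DEGs with EGF, among 612 genes. Without mouse 6 alone the same 3 genes were DEGs. Over all genes, leaving out 1 mouse at a time gave 0 to 338 DEGs with EGF, against 4 with all mice. The difference in response between the mice was not itself tested.

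Id1 had its own pattern with EGF. It went from 5.81 to 19.1 FPM in mouse 1 and from 8.37 to 47.3 FPM in mouse 2, whereas mouse 3 went from 77.0 to 56.1 FPM and mice 4 to 6 kept 87.0, 69.5 and 147 FPM against 99.2, 71.6 and 150 FPM. The fitted change of 0.66 (95% interval 0.01 to 1.31, edgeR FDR = 0.274) therefore summarised increases in the 2 mice with the lowest control levels and lower values in the other 4. With EGF+U46619 these 2 mice stood at 10.0 and 10.7 FPM.

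AngII alone gave no DEG among the members at 24 h, and none among all genes (0%), with no member at an unadjusted p below 0.05 in edgeR and none called by DESeq2. The members' intervals reached from −0.71 to 0.78 at the widest. EGF+AngII against control called Inhba as higher (1.00 ± 0.228, edgeR FDR = 0.0339; 6 of 6 mice), which makes 1 member against 2.16% of all genes, and Nbl1 as lower (−0.92 ± 0.229, edgeR FDR = 0.0408; 5 of 6 mice), 1 member against 2.23%. Leaving out mouse 1, 2, 3 or 5 ended both calls. Nbl1 ran from 200 over a median of 266 to 428 FPM in the control and from 88.3 over 168.3 to 202 FPM with EGF+AngII. EGF+AngII against EGF called no member, with none of all genes called (0%), none of the members at an unadjusted p below 0.05 and none by DESeq2.

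Both double and triple incubations with U46619 gave the same 4 members in the same directions as U46619 alone. These comparisons share the control libraries, so their values stand side by side without a test of likeness. For EGF+U46619, 1 of 9 members was higher, against 23.8% of all genes, and 3 were lower, against 22.6%. For EGF+AngII+U46619 the counts were 1 against 25.3% and 3 against 22.7%. With EGF+U46619, Id4 (−2.27 ± 0.320, edgeR FDR = 3.43e-06) had a minimum of 8.18, a median of 13.9 and a maximum of 32.2 FPM and was lower in 6 of 6 mice. Id2 changed by −1.36 ± 0.238 (edgeR FDR = 4.70e-05), Fst by −1.21 ± 0.311 (FDR = 0.00249) and Inhba by 1.98 ± 0.233 (FDR = 4.01e-07), each in the same direction in 6 of 6 mice. Inhba then ran from 56.4 over 101.4 to 356 FPM.

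With EGF+AngII+U46619 the changes were −1.46 ± 0.240 for Id2 (edgeR FDR = 1.64e-05), −2.21 ± 0.320 for Id4 (FDR = 3.37e-06), −0.99 ± 0.311 for Fst (FDR = 0.0108) and 1.80 ± 0.232 for Inhba (FDR = 7.67e-07). The call for Fst ended without mouse 2 or mouse 3. Id3 fell short of the threshold with EGF+U46619 (−0.57, 95% interval −1.06 to −0.09, edgeR FDR = 0.0530; 4 of 6 mice lower). The fibroblast marker sum stood at 233–1287 FPM with EGF+U46619, all 8 markers were lower DEGs in both combinations, and their part was not tested.

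Direct comparisons ask what each ligand added to another. Adding U46619 to EGF raised 1 member (against 9.9% of all genes) and lowered 2 (against 8.81%): Inhba by 1.10 ± 0.226 (edgeR FDR = 0.0013), Id4 by −1.51 ± 0.311 (FDR = 0.0013) and Id2 by −0.83 ± 0.234 (FDR = 0.0139), each in 6 of 6 mice. Leaving out mouse 2 ended the call for Id2. Fst, lower with either ligand on average, was at −0.12 (−0.74 to 0.51) in this comparison. Adding U46619 to EGF+AngII raised 3 members (against 17.1%) and lowered 2 (against 11.7%). Id2 (−0.96 ± 0.236, edgeR FDR = 0.00382) and Id4 (−1.48 ± 0.310, FDR = 0.00102) were lower in 6 of 6 mice. Inhba (0.80 ± 0.226, FDR = 0.0102), Nbl1 (0.71 ± 0.226, FDR = 0.0209) and Bambi (0.78 ± 0.252, FDR = 0.0225) were higher in 5, 6 and 5 of 6 mice.

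Bambi was called in this comparison alone among the 24 h comparisons. It ran from 9.68 over 11.9 to 16.0 FPM with EGF+AngII and from 9.22 over 19.4 to 40.4 FPM with the triple incubation. The groups overlapped, and leaving out mouse 2, 3, 4 or 6 ended the call. The call for Nbl1 ended without mouse 2 or mouse 3 and that for Inhba without mouse 6. In mouse 3, Bambi went from 210 to 382 counts but from 10.4 to 28.8 FPM, at totals of 19958349 and 20551231 counts. In the same 2 libraries Nbl1 went from 2818 to 4075 counts but from 140 to 307 FPM. The scaling of the triple-incubation library of mouse 3 thus added to both rises. Inhba was lower in that library (16.5 FPM) than with EGF+AngII (22.3 FPM).

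Adding EGF to U46619 called no member, with none of all genes called (0%), 1 member (Id2) at an unadjusted p below 0.05 and none by DESeq2. Id2 was nevertheless lower in 6 of 6 mice with EGF+U46619 than with U46619 (−0.53, 95% interval −1.004 to −0.05, edgeR FDR = 1), and Fst in 6 of 6 mice (−0.42, −1.04 to 0.20). Adding AngII to EGF+U46619 likewise called none of the members and none of all genes (0%), with no member at an unadjusted p below 0.05 and none by DESeq2. The departure from additivity on the log2 scale gave no call among the members for EGF with U46619 or for EGF with AngII, at 0% of all genes in both, with no member at an unadjusted p below 0.05 and none by DESeq2. Its intervals were wide: for EGF with U46619 they ran from −1.24 to 0.05 for Inhba, from −0.21 to 1.55 for Fst and from −1.69 to 0.11 for Id1.

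**Figure D2:**
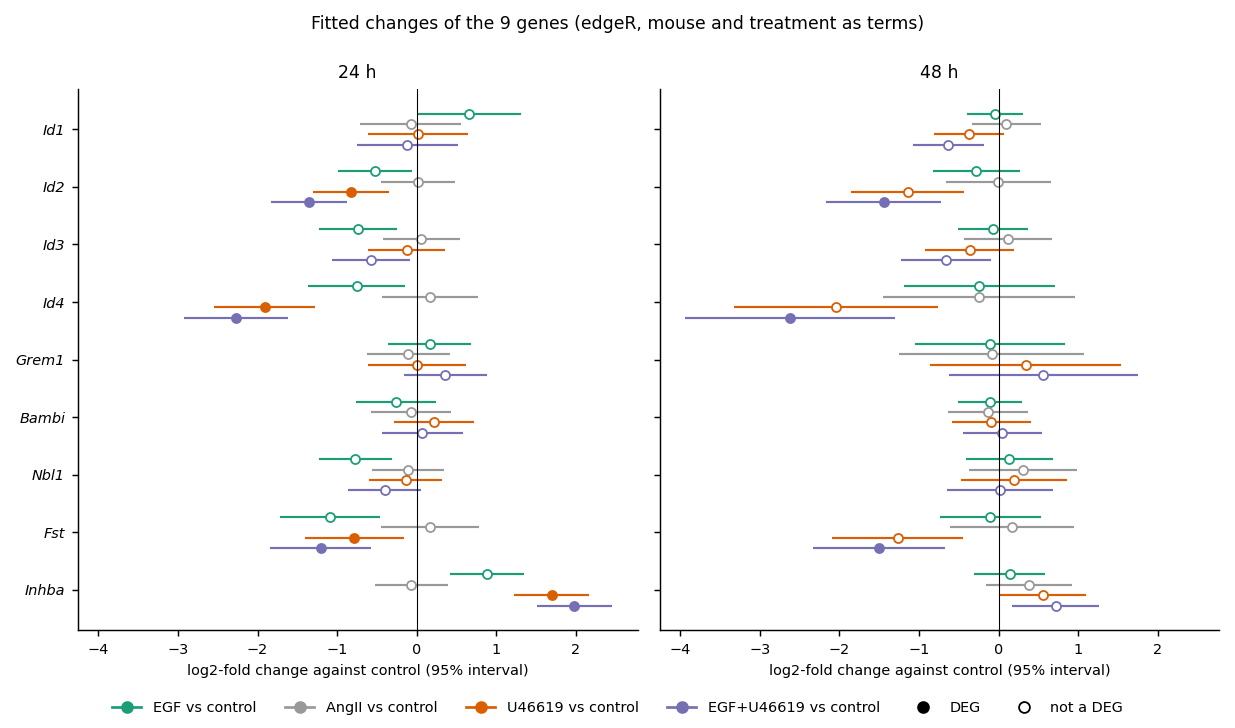
Fitted log2-fold changes against control with 95% intervals (horizontal axis) for the 9 genes at 24 h and 48 h, by treatment, with filled points for DEGs. Id2, Id4, Fst and Inhba are filled at 24 h with U46619 and with EGF+U46619; at 48 h Id2, Id4 and Fst are filled with EGF+U46619, and the intervals are wider (Id4 −3.94 to −1.30).

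At 48 h, U46619 called no member in the fit with the mouse numbers of the labels, where 5.59% of all genes were called. In it 4 members had an unadjusted p below 0.05 in edgeR, and DESeq2 alone called 3 (Id2, Id4 and Fst). Over the 10470 genes that could be called, DESeq2 alone called 965, and 2417 had an unadjusted p below 0.05 in both tools. The members' median was −0.36, against 0.01 over all genes. Id4 was at −2.04 (95% interval −3.32 to −0.76, edgeR FDR = 0.0537), Id2 at −1.14 (−1.85 to −0.43, FDR = 0.0532), Fst at −1.27 (−2.09 to −0.45, FDR = 0.0615) and Inhba at 0.56 (0.02 to 1.10, FDR = 0.213). With the culture set as block instead of the mouse number, 1 member was higher (against 8% of all genes) and 3 were lower (against 6.76%). These were Inhba (0.63 ± 0.213, edgeR FDR = 0.049996), Id2 (−0.99 ± 0.183, FDR = 0.000557), Id4 (−2.06 ± 0.348, FDR = 0.000192) and Fst (−1.08 ± 0.283, FDR = 0.0113).

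Within the EGF/U46619 batch, the decreases held in every culture set. By the labels, sets 1 and 4 of this batch share mouse 7, so the 5 sets may not be independent. Counts of sets and the fit of this batch alone treat them as separate. Id4 stood at 185.05, 76.3, 126, 48.2 and 44.7 FPM in the 5 controls and at 31.9, 15.7, 13.9, 13.9 and 14.9 FPM with U46619, in the same order of sets. Fst stood at 146, 106, 117, 88.7 and 110 FPM in the controls and at 52.9, 42.8, 44.8, 42.6 and 59.8 FPM with U46619. The EGF/AngII batch had Id4 controls of 20.7 and 19.0 FPM in sets 2 and 4, below the highest of these U46619 values. Within the EGF/U46619 batch, for both genes every treated library lay below every control. How many of all genes did so is not given, so this does not set the 2 genes apart. The 8 fibroblast markers summed to 754, 2135, 1720, 1042 and 3886 FPM in these controls and to 482, 1153, 1203, 674 and 2724 FPM with U46619, lower in 5 of 5 sets, and 2 of 8 were lower DEGs over both batches. The 8 leukocyte markers summed to 85.7, 50.5, 137, 121 and 51.4 FPM and to 42.1, 60.1, 75.4, 76.9 and 42.5 FPM, lower in 4 of 5 sets. The part of either in the changes of the members was not tested.

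Id2 stood at 108, 25.2, 57.3, 38.6 and 50.6 FPM in the same controls and at 92.5, 8.61, 17.0, 21.5 and 27.9 FPM with U46619. It was lower in 5 of 5 sets, with set 1 high in both groups. Inhba went from 45.7, 40.9, 50.5, 83.3 and 77.5 FPM to 116, 63.0, 94.3, 127 and 78.6 FPM, and set 5 was nearly level. A fit of this batch alone gave 2 higher members (against 16.2% of all genes) and 3 lower members (against 13.9%). Id4 was at −2.28 ± 0.208 (edgeR FDR = 3.53e-06), Id2 at −1.05 ± 0.204 (FDR = 0.00146), Fst at −1.21 ± 0.0971 (FDR = 1.75e-06), Inhba at 0.66 ± 0.197 (FDR = 0.0215) and Grem1 at 0.83 ± 0.215 (FDR = 0.00925).

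Grem1, a gremlin-family antagonist of BMP2 and BMP4, had no call in the fits over both batches with the mouse numbers. It stood at 57.0, 106, 98.4, 13.9 and 317 FPM in the 5 controls, at 52.6, 269, 199, 36.7 and 500 FPM with U46619 and at 65.0, 304, 254, 59.6 and 481 FPM with EGF+U46619. It was higher in 4 of 5 sets with U46619 and in 5 of 5 with EGF+U46619, and the groups overlapped. In the fit over both batches it was at 0.34 (−0.86 to 1.54).

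**Figure D3:**
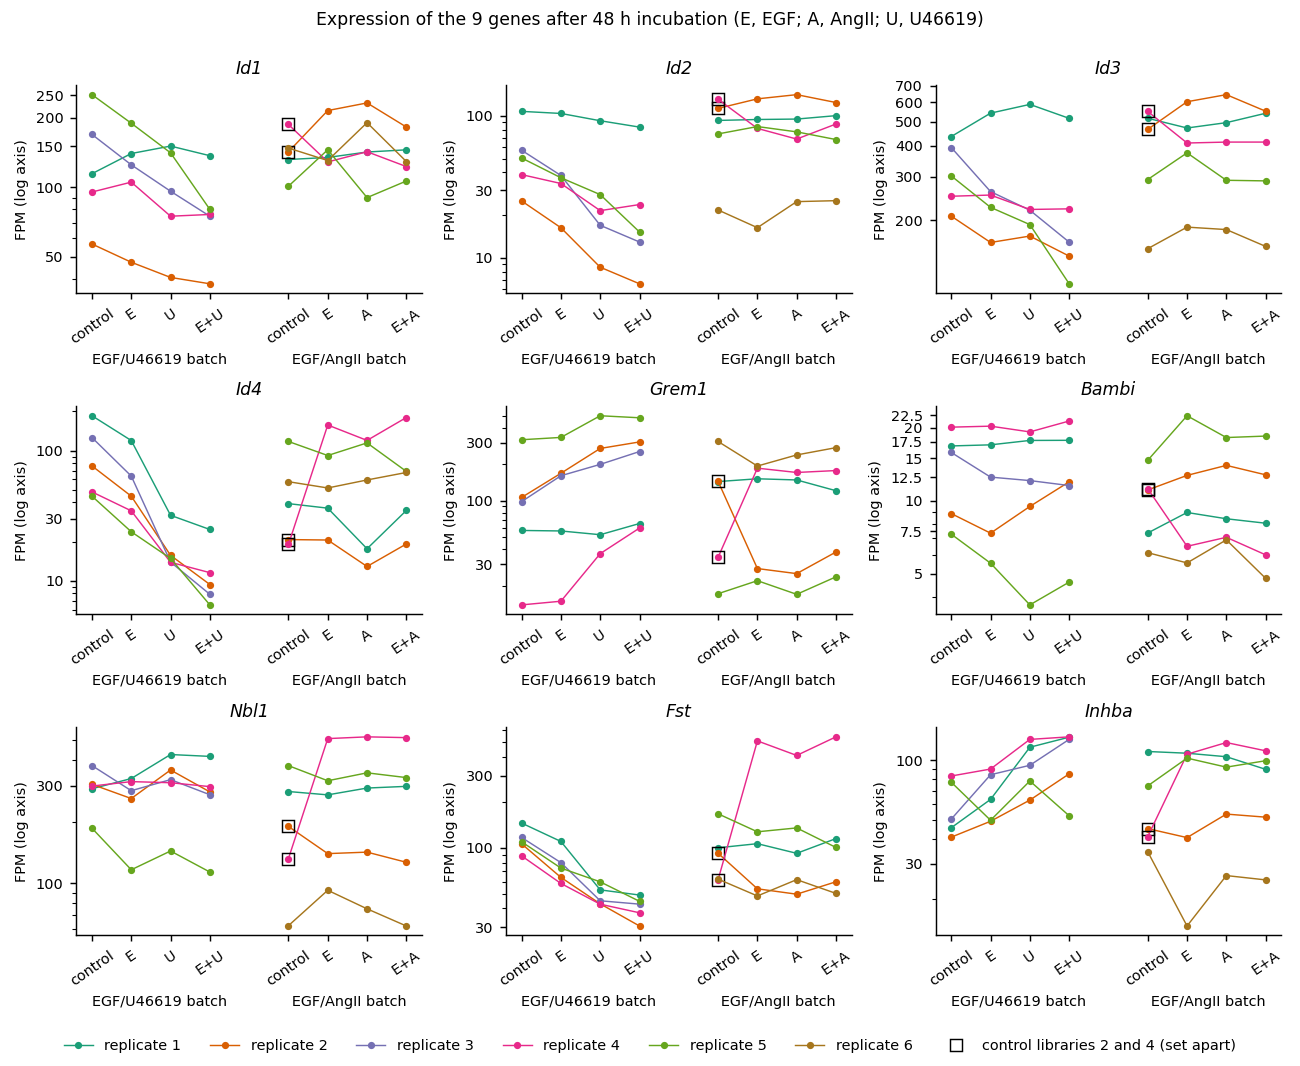
Expression in FPM (log axis) of the 9 genes in each of the 40 libraries after 48 h, with the EGF/U46619 batch to the left and the EGF/AngII batch to the right in each panel (E, EGF; A, AngII; U, U46619). Id4 and Fst lie lower with U46619 than in the control in every set of that batch, and the library labelled control replicate 4 of the EGF/AngII batch has 61.8 FPM of Fst where the rest of its set has 408 to 540.

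EGF+U46619 at 48 h called 3 members as lower, against 4.17% of all genes, and none as higher, against 5.32%. These were Id4 (−2.62 ± 0.650, edgeR FDR = 0.0108), Id2 (−1.44 ± 0.356, FDR = 0.0105) and Fst (−1.50 ± 0.407, FDR = 0.0197), lower in 5 of 5 sets each. Leaving out set 3 of the EGF/U46619 batch ended all 3 calls, and leaving out set 2 or set 4 of that batch ended the call for Fst. Id4 stood at 24.8, 9.38, 7.89, 11.6 and 6.54 FPM and Fst at 48.9, 30.6, 42.6, 37.4 and 44.5 FPM.

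With the culture set as block, 1 member was higher (against 10.6%) and 5 were lower (against 10.1%), adding Inhba (0.76 ± 0.214, edgeR FDR = 0.0129), Id1 (−0.63 ± 0.171, FDR = 0.00984) and Id3 (−0.56 ± 0.150, FDR = 0.00931). Within the batch alone 2 were higher (against 19.4%) and 5 lower (against 17%), Grem1 being the addition (1.15 ± 0.217, edgeR FDR = 0.000796). Id1 went from 114, 56.7, 168.96, 95.1 and 251 FPM in the controls to 137, 38.1, 74.7, 76.0 and 79.995 FPM. It was thus lower in 4 of 5 sets, and set 5 moved furthest. Id3 went from 436, 208, 394, 250 and 302 FPM to 516, 143, 163.02, 222 and 111 FPM, also lower in all sets but set 1.

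Adding U46619 to EGF at 48 h lowered 3 members, Id2 (−1.16 ± 0.351, edgeR FDR = 0.0465), Id4 (−2.37 ± 0.645, FDR = 0.0264) and Fst (−1.40 ± 0.409, FDR = 0.0393), against 3.05% of all genes, and raised none, against 3.63%. With the culture set as block 2 members were higher (against 9.68%), Grem1 (1.00 ± 0.345, edgeR FDR = 0.0486) and Inhba (0.67 ± 0.211, FDR = 0.0322), and 5 were lower (against 8.51%). The calls over both batches depended on single sets: without set 2 or set 3 of the EGF/U46619 batch, for example, all 3 ended.

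The remaining 48 h comparisons called no member and none of all genes (0%): EGF against control, AngII against control, EGF+AngII against control, EGF+AngII against EGF, EGF+U46619 against U46619, and both tests of additivity. In each, no member had an unadjusted p below 0.05 in edgeR and DESeq2 alone called none. EGF against control spanned both batches, and within the EGF/U46619 batch Fst was lower with EGF (−0.57 ± 0.0954, edgeR FDR = 0.0292, 1 of 8 genes called), at 110, 63.9, 80.03, 58.3 and 73.7 FPM. Within the EGF/AngII batch it was at 0.03 ± 0.384 (edgeR FDR = 0.980).

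That batch holds the library that stood apart. In set 4, Fst was at 508, 408 and 540 FPM with EGF, AngII and EGF+AngII and at 61.8 FPM in the library labelled control. Grem1 was at 185.3, 170.8 and 177.09 FPM against 34.3 FPM, Nbl1 at 509, 519 and 514 FPM against 132 FPM and Id4 at 157.1, 120 and 179.4 FPM against 19.0 FPM in the same libraries. Without sets 2 and 4 of that batch, a choice made after seeing the data, U46619 against control at 48 h called Id4 (−2.13, edgeR FDR = 0.00507) and Fst (−1.26, FDR = 0.000142). The share of all genes called in that fit is not given.

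Id1 and Id3 had no call with a single ligand at either time in the fits with the mouse numbers, and their levels followed the culture. At 24 h Id1 was at 5.81 and 8.37 FPM in controls of mice 1 and 2, whose endothelial markers summed to at most 7.89 FPM, and at 71.6 to 150 FPM in mice 3 to 6. Mouse 3 had 77.0 FPM of Id1 beside an endothelial sum of at most 61.7 FPM. At 48 h the highest control, 251 FPM, was in a set whose endothelial sum was at most 19.8 FPM. For Id3 the lowest 24 h controls were 38.7 and 59.5 FPM in mice 1 and 2, and the highest was 518 FPM in mouse 6. The part of endothelial or of epithelial cells in these levels was not tested.

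**Figure D4:**
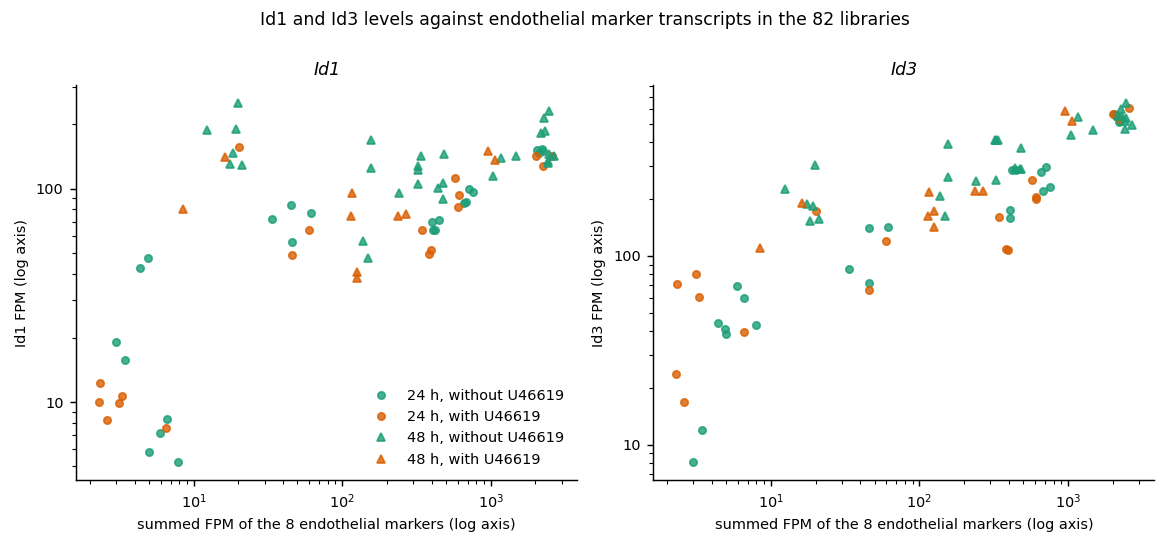
Id1 and Id3 in FPM against the summed FPM of the 8 endothelial markers (both axes log) in the 82 libraries, circles for 24 h and triangles for 48 h, green without and orange with U46619. The libraries of mice 1 and 2 lie at the lower left with sums of at most 7.89 FPM, and a 48 h set with sums of 8.49 to 19.8 FPM reaches 251 FPM of Id1.

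The rest of the BMP and activin system was counted in 6 lists of pathway genes without the 9 members. After 24 h of U46619, against the 19% higher and 19.8% lower of all genes, 1 of 10 ligands tested was higher and 2 were lower (median −0.56). Of 11 receptors and coreceptors 1 was higher and 4 were lower (median −0.22), and of 8 SMADs and SMAD ubiquitin ligases 3 were higher and 1 was lower (median 0.20). Of 8 other extracellular antagonists 2 were higher and 2 lower (median −0.26). None of 11 other BMP-responsive transcription factors was higher and 2 were lower (median −0.72), and none of 5 E proteins and partners was higher and 2 were lower (median −0.46). With EGF+U46619, against 23.8% higher and 22.6% lower of all genes, the higher and lower counts were 0 and 5, 1 and 3, 4 and 1, 2 and 3, 1 and 4, and 0 and 1 in the same order. EGF alone called none in any list.

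Among ligands, Gdf10, a BMP relative, was at −2.96 ± 0.682 with U46619 and −4.59 ± 0.845 with EGF+U46619, from a control mean of 28.4 ± 62.5 FPM (SD, n = 6). Inhbb, the βB subunit of activin, was higher with U46619 (0.68 ± 0.249), and Bmp4 was lower with EGF+U46619 (−1.21 ± 0.304). Among receptors, Bmpr1b, a type I BMP receptor, was higher (1.84 ± 0.359; 2.27 ± 0.359 with EGF+U46619), from a control mean of 2.13 ± 2.45 FPM. Tgfbr3 (betaglycan, a coreceptor that binds inhibin) was lower (−1.02 ± 0.240) and so was Acvrl1 (ALK1, −0.53 ± 0.152). The other receptor called lower and named here, Rgma, a BMP coreceptor, was at −0.78 ± 0.237.

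Among intracellular parts, the inhibitory Smad7 (0.65 ± 0.142) and the ubiquitin ligases Smurf1 (0.45 ± 0.159) and Smurf2 (0.41 ± 0.157) were higher with U46619 and Smad9, a BMP SMAD, was lower (−1.0001 ± 0.284). Smad3 and Smad6 were listed at 0. Of the other antagonists, Fstl3, an activin-binding relative of Fst, was higher (1.16 ± 0.362). Chrd (chordin), a secreted BMP antagonist, was lower (−0.50 ± 0.186). Tbx2, a T-box factor, was lower (−0.79 ± 0.235), as were the basic helix-loop-helix factors Twist1 (−0.46 ± 0.161) and Twist2 (−0.82 ± 0.274).

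At 48 h, against 5.59% of all genes called with U46619, 1 of 10 ligands was higher and 1 lower, 1 of 11 receptors was higher and 2 of 11 transcription factors were lower. None of 8 SMADs and ligases, 8 other antagonists or 5 E proteins and partners was called.

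Genes with a pattern like each member were sought by the Pearson correlation of log2 FPM, taken as deviations from the mouse mean over the 42 libraries at 24 h among 10605 genes. The 42 points share mice, treatments and depth, so the values describe and are not tested. Inhba was nearest to Ptk2 (r = 0.96), Gm49336 and Steap2 (both 0.94), Id4 to Tle2 (0.93), Olfml3 and Nat8f3 (both 0.92) and Id2 to Tifa (0.91), Gstt1 and Ap3m2 (both 0.90). Fst was nearest to Npy1r (0.91), Dmpk (0.90) and Chfr (0.89), Nbl1 to Rbms2 (0.92) and Pwwp2b (0.91), and Id3 to Ccn5 (0.88), Rab29 (0.86) and Mfge8 (0.83). Bambi was nearest to Asb2 (0.83), Chst12 (0.82) and Bok (0.81), and Grem1 to Tnfaip3 (0.76), Plpbp (0.74) and Cables2 (0.71). Id1 was nearest to Ppp1ccb (0.88), Ppp1cc (0.81) and Ccl7 (0.79); Ppp1ccb is annotated as a processed pseudogene and bears the name of Ppp1cc, and reads with several alignments were counted, so these values are uncertain. Among the members themselves, Id4 and Inhba had r = −0.83, Id2 and Inhba −0.78, Id2 and Id4 0.79, and Fst and Inhba −0.57.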

How the data were processed

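The authors aligned paired-end poly(A) RNA-seq reads to mm10 with HISAT2 2.1.0 and counted them per gene over exons with featureCounts, including reads with several alignments, which can blur near-identical genes; the deposited values are raw counts. Counts of each time were fitted over all groups with terms for the mouse and the treatment in edgeR 4.0.16 (quasi-likelihood F test, TMM) and DESeq2 1.42.0 (Wald test) in R 4.3.3, on the 14653 (24 h) or 15796 (48 h) genes passing filterByExpr. DEGs had a Benjamini-Hochberg FDR below 0.05 in both tools, a mean of at least 5 FPM in a compared group and passed the filter at both times. Depth, 16483529 to 33916114 counts per library, limits the precision of low counts only as counting error. Correlations used log2(FPM + 0.5).

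The members and gene lists were chosen with earlier results of these data known. All 9 members are named, and of each list at most 3 called genes per direction with the largest changes with U46619 or EGF+U46619 at 24 h. Some genes that these rules name are not reported here. At 24 h, libraries of 1 mouse deviated together from the group means in 126 of 126 pairs (r over 0.1), so the mouse was held as a term. At 48 h the pairs were formed within culture sets, and 57 of 60 deviated together. The main 48 h fit held the mouse number of the labels, which joins several sets. It therefore leaves out part of this pairing, which the culture set as block holds. Alternatives were another test, normalization, filter, block, batch handling or set of groups, and leaving out each mouse or set; 3 more were added after seeing the data. The fits were checked on simulated data. Figures were drawn with Matplotlib 3.10.9.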

Additional observations from a re-analysis of the deposited data

Results flagged for a closer look

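In 23 of 117 groups of 5, 6 or 10 libraries, the highest library of a member lay further from the next than Dixon's 95% limit allows. That limit assumes normally distributed values, whereas FPM were widely spread between mice. Groups also share mice and genes, so they are not independent. The count is therefore not set against a chance rate. Most came from a few cultures. Mouse 6 of the 24 h series had Id2 at 75.7 FPM with EGF (next 23.9), 65.1 with U46619 (next 19.6), 71.4 with EGF+AngII (next 22.3) and 56.4 with EGF+U46619 (next 15.9). The same mouse had Id3 at 609 FPM with EGF+U46619 and 534 with EGF+AngII+U46619, and Id4 at 72.7 FPM with U46619 and 61.3 with EGF+AngII+U46619. Set 1 of the 48 h EGF/U46619 batch had Id2 at 92.5 FPM with U46619 and 83.4 with EGF+U46619, Id3 at 588 and 516 FPM, and Id4 at 31.9 and 24.8 FPM. Mouse 4 had Grem1 at 442 FPM with EGF (next 161.3), 268 with AngII (next 101.02) and 269.8 with EGF+AngII+U46619 (next 56.4). Set 4 of the EGF/AngII batch had Fst at 508 FPM with EGF, 408 with AngII and 540 with EGF+AngII (next 128, 136 and 115). Bambi was at 32.5 FPM in the control of mouse 1 (next 16.3) and at 33.5 with EGF+U46619 in mouse 2 (next 17.2), and Inhba at 356 FPM with EGF+U46619 in mouse 5 (next 129).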

How the results depend on the processing

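No member changed direction among its called comparisons in any alternative; 98 member values lost a call, 71 gained one and 3782 stayed on their side of the threshold, most of them uncalled throughout. Numbers below are members called. The number of all genes called also changed between settings, so these counts do not set the members apart from other genes. For EGF at 24 h (0 as reported) DESeq2 alone called 3, the likelihood ratio test with DESeq2 3, the fit without a low-count filter 2 and the fit without mice 4 to 6 3. Without the replicate block, ignoring that libraries are paired by mouse, U46619 called 0, EGF+AngII 0, EGF+U46619 1, EGF+AngII+U46619 1, EGF+U46619 against EGF 0 and EGF+AngII+U46619 against EGF+AngII 0 at 24 h, and EGF+U46619 1 and EGF+U46619 against EGF 0 at 48 h. With only the compared groups in the fit, U46619 called 2 at 24 h and 1 at 48 h, EGF+AngII 0, EGF+AngII+U46619 against EGF+AngII 3 and EGF+U46619 against EGF 0 at 48 h. Without mice 4 to 6, EGF+U46619 against EGF called 1 and EGF+AngII+U46619 against EGF+AngII 2. For U46619 at 48 h (0 as reported) DESeq2 alone called 3, the likelihood ratio test 3, the culture set as replicate block 4, its batch alone 5 and the fit without sets 2 and 4 of the EGF/AngII batch 2. For EGF+U46619 at 48 h (3 as reported) the culture set as block gave 6, a batch term 1 and the batch alone 7; against EGF (3 as reported) these gave 7, 1 and 6. EGF at 48 h called 1 in the EGF/U46619 batch alone. Leaving out each mouse or set in turn gave 0–3 for EGF, 2–4 for U46619 and 0–3 for EGF+AngII; EGF+U46619 had 4–6 and the triple incubation 3–5, with 3–5 for EGF+AngII+U46619 against EGF+AngII at 24 h, and 0–2 for U46619, 0–5 for EGF+U46619 and 0–4 for EGF+U46619 against EGF at 48 h. Over all genes, the same leave-one-out fits gave 0–338 DEGs for EGF, 2510–4636 for U46619 and 0–1115 for EGF+AngII at 24 h. EGF+U46619 had 3540–5063, the triple incubation 3905–5418, and the triple incubation against EGF+AngII 1264–3063. At 48 h they gave 145–736 for U46619, 362–1149 for EGF+U46619 and 233–692 for EGF+U46619 against EGF. The cause of these changes was not tested.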
